A study of Homo sapiens with 6 samples.

Results

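The interferon regulatory factors (IRFs) described here were IRF1, IRF2, IRF3, IRF4, IRF5, IRF7, IRF8 and IRF9, 8 genes chosen by name from the 58174 genes listed for every sample. They were measured by RNA-seq in T24 cells, an established human bladder cancer line. The shRNA-NC group (n = 3) carried a control hairpin, and the shRNA-UBC9 group (n = 3) carried a hairpin against UBC9, the enzyme that transfers SUMO to its target proteins. The UBC9 hairpin was delivered in the lentiviral pLKO.1 vector and infected cells were selected with puromycin until stable. The vector of the control hairpin was not given in the sources used here. A single hairpin sequence was given for UBC9, so an effect of that sequence and an effect of losing UBC9 cannot be told apart.

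IRFs are transcription factors that share a DNA-binding domain and recognize GAAA repeats, the core of the interferon-stimulated response element (ISRE). IRF3, IRF5 and IRF7 lie dormant in the cytoplasm until they are phosphorylated, IRF3 and IRF7 by kinases such as TBK1 and IKKε. They then switch on type I and type III interferon genes. The secreted interferon acts back through its receptor to assemble ISGF3, a complex of STAT proteins with IRF9, which drives interferon-stimulated genes, IRF7 among them. IRF1 activates and IRF2 largely represses a partly shared group of targets, whereas IRF4 and IRF8 serve mainly in lymphoid and myeloid cells.

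Promoters of the IRF genes were searched for motifs, among them GAS, which STAT dimers bind. Those of IRF1 and IRF9 are printed below because a match was found in them. RefSeq windows (GRCh38.p14) of 250 bases upstream of a start site were found for 5 of the 8 genes (IRF1, IRF4, IRF5, IRF8 and IRF9), and none for IRF2, IRF3 and IRF7. IRF5 and IRF8 had several windows each. Those of IRF8 began at 85902580 and 85902765 of chr16, inside the gene and past the start of its main transcript at 85899162. The promoter of the main IRF8 transcript was therefore not searched. Among the windows searched, the letters TTCNNNGAA (GAS) were found in those of IRF1 and IRF9. The letters of the ISRE core (GAAA, any 2 bases, GAAA) and of a narrow form of the kappaB site (GGG, any 2 bases, TTTCC) were found in none. Sites that depart from these letters would be missed, so the windows cannot be called free of kappaB sites. The IRF1 window holds ggggaatccc, which the kappaB letters searched cannot match, and whether it is a kappaB site was not tested. Both strands were searched, and no 2 matches overlapped. Over 35116 windows of the same length, 6.57% held the GAS letters, 3.02% the ISRE core and 1.73% the kappaB letters, so a GAS match is not rare. Matched bases are in capitals, 5′ to 3′ on the strand of the gene, in the windows chr5:132490774-132491023 (minus strand) for IRF1 and chr14:24161015-24161264 (plus strand) for IRF9.
IRF1: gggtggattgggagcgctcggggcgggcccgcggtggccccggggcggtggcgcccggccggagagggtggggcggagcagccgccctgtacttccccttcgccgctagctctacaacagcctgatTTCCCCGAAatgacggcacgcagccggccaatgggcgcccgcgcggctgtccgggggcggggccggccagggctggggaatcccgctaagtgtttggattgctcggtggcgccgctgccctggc
IRF9: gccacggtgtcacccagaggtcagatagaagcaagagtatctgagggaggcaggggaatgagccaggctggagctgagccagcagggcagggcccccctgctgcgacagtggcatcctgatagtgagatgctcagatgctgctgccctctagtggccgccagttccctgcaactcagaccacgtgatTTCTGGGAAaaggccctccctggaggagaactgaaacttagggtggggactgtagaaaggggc
The match lay 124 to 116 bases before the start in IRF1 and 63 to 55 bases before it in IRF9. Of these 2 genes IRF9 was called higher after knockdown and IRF1 was not, as given further on, and the difference between them was not tested.

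Expression was deposited as RPKM, reads scaled by gene length and by the total of mapped reads, so levels can be compared between genes of different length. The depth of the samples, read from the steps between low RPKM values, ranged from 0.945 to 1.21 times that of shRNA-NC replicate 1, and absolute depth is unknown. T24 cells had almost no CDH1 (E-cadherin, at most 0.00449 RPKM) and only traces of uroplakin transcripts, while KRT7, KRT8 and KRT18 were abundant. The summed level of 12 epithelial and urothelial markers was 943.5 to 1116.3 RPKM in shRNA-NC and 430.2 to 568.3 RPKM in shRNA-UBC9, and in bulk RNA fewer cells of a type and less RNA per cell cannot be told apart. Of the 6 markers tested, 5 were lower at a limma adjusted p below 0.05, where 18% of all tested genes were lower. Their log2 fold changes were -0.79 for GATA3, -0.81 for KRT8, -0.93 for KRT18, -0.99 for KRT19 and -1.11 for KRT7. KRT7 was the marker called down, where 2.7% of all tested genes were called down. Without shRNA-UBC9 replicate 3 there were 2 such markers, and without shRNA-NC replicate 2 there were 3. EPCAM had a log2 fold change of 0.996 (limma adjusted p = 0.0984), and the summed level rests mainly on the keratins. The 4 mesenchymal markers VIM, CDH2, ZEB1 and FN1 had log2 fold changes of -0.38 to -0.06. None of these was called or had a limma adjusted p below 0.05. What part the lower epithelial markers play in the IRF differences was not tested.

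IRF7 and IRF9 were the IRF genes that rose by more than 2-fold in shRNA-UBC9 cells. IRF7 went from 14.2 ± 1.59 to 84.1 ± 24.8 RPKM (SD, n = 3 each) and IRF9 from 6.96 ± 0.815 to 20.1 ± 2.42 RPKM. IRF2, IRF3 and IRF5 were higher by less than 2-fold, IRF1 was lower on average with overlapping samples, and IRF4 and IRF8 were at or near 0 throughout. Genes were tested by limma on log2(RPKM + 0.1) with Benjamini-Hochberg adjustment over 12428 genes that reached 0.5 RPKM in at least 3 samples, and called when the log2 fold change passed 1 in either direction with an adjusted p below 0.05. Of the 8 IRF genes 6 were tested, 2 were called up and 0 down, where 5.2% of all tested genes were called up, 2.7% down and 7.89% in either direction. At an adjusted p below 0.05 whatever the fold change, 5 of the 6 were higher and 0 lower, where 18.8% of all tested genes were higher and 18% lower. In 5 of the 6 every shRNA-UBC9 sample was above every shRNA-NC sample, a pattern shown by 25.7% of all tested genes, and 0 of the 6 showed the reverse, against 25.4% of all. The median log2 fold change of the 6 was 0.64 and that of all tested genes 0.00. Nothing in the labels says that the samples came from separate cultures, so p-values measure the spread between these samples, which may be technical.

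**Figure D1:**
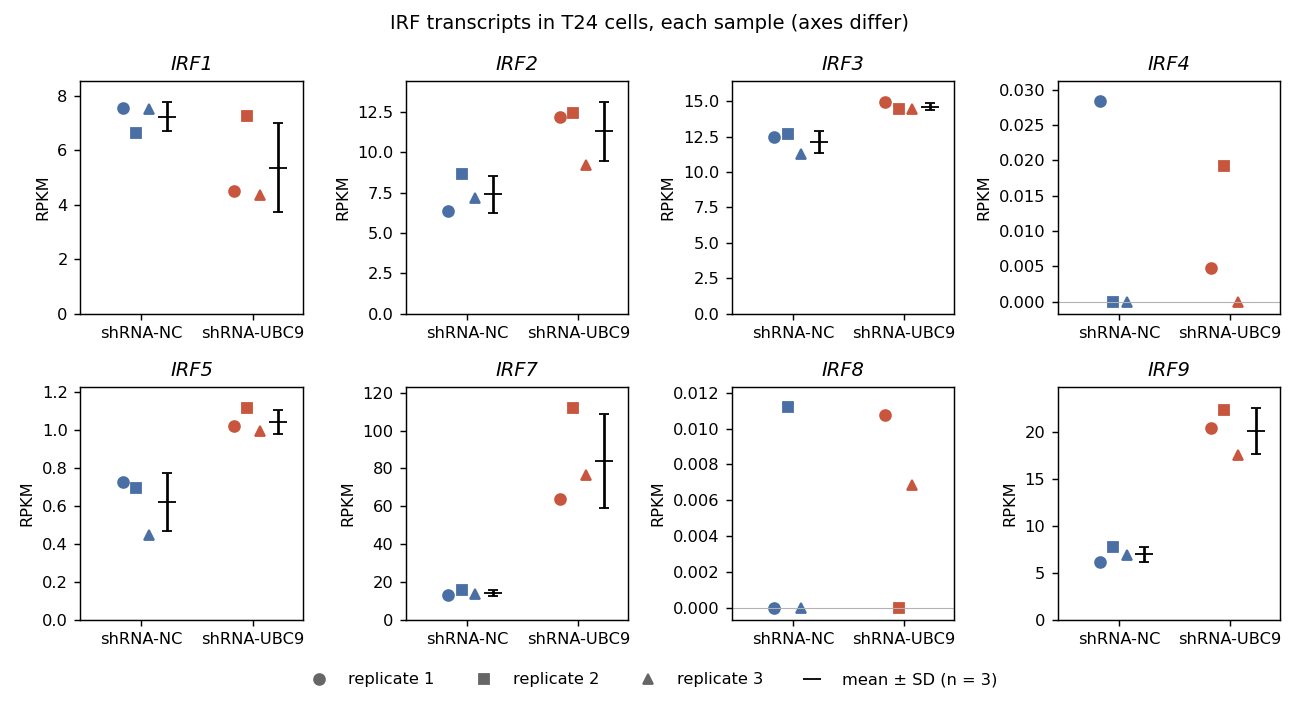
RPKM of the 8 IRF genes in each sample, with shRNA-NC in blue, shRNA-UBC9 in red, a symbol for each replicate number and, except for IRF4 and IRF8, the mean ± SD (n = 3) as black bars; the vertical axes differ between genes. IRF7 and IRF9 show the widest gaps between groups, from at most 16.0 to at least 63.8 RPKM and from at most 7.79 to at least 17.5 RPKM, and in IRF1 shRNA-UBC9 replicate 2 lies among the controls.

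IRF7, on chr11:612555-615950 (GRCh38, minus strand, 11 exons), encodes the factor that amplifies interferon production once the response has begun. Its level was 13.1, 16.0 and 13.5 RPKM in shRNA-NC and 63.8, 111.8 and 76.7 RPKM in shRNA-UBC9. The groups were far apart, and shRNA-UBC9 replicate 2 was highest. The log2 fold change was 2.52 ± 0.191 (95% interval 2.09 to 2.96, limma adjusted p = 8.33e-05), which put IRF7 at rank 125 among the 12428 tested genes. Its level climbed from the 75.4 percentile of tested genes in shRNA-NC to the 96.8 percentile in shRNA-UBC9. Read numbers recovered from the RPKM steps, given as the smallest whole numbers that the 6 values of a gene allow, were 1024 to 1458 in the controls and 5687 to 10349 after knockdown, so counting error was small beside the spread between samples. When shRNA-UBC9 replicate 2 was left out, IRF7 still differed by 2.30 on the log2 scale (limma adjusted p = 8.83e-05).

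IRF3, on chr19:49659572-49665857 (minus strand, 8 exons), encodes the constitutive factor that acts first when viral nucleic acid is sensed. Its values were 12.5, 12.7 and 11.3 RPKM in shRNA-NC and 14.9, 14.5 and 14.5 RPKM in shRNA-UBC9. The samples did not overlap, but the step was small, at a log2 fold change of 0.27 ± 0.0836 (limma adjusted p = 0.0358), and the gene was not called. The adjusted p stayed below 0.05 only when shRNA-NC replicate 2 was the sample left out and reached 0.149 without shRNA-NC replicate 3. BCL2L12 lies on the opposite strand and shares 227 exon bases with IRF3. It ranged from 10.2 to 13.0 RPKM in shRNA-NC and from 11.1 to 14.7 RPKM in shRNA-UBC9 (log2 fold change 0.07, limma adjusted p = 0.699). The strand setting of the read counting was not given in the sources used here, so reads over the shared bases cannot be told apart.

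IRF5, on chr7:128937927-128950038 (plus strand, 9 exons), is a factor of Toll-like receptor signaling that is most active in myeloid cells. It was the lowest of the tested members, with 0.728, 0.693 and 0.446 RPKM in shRNA-NC and 1.02, 1.12 and 0.996 RPKM in shRNA-UBC9. Every knockdown sample was above the controls at a log2 fold change of 0.69 ± 0.203 (limma adjusted p = 0.0299). The gene was not called, and it stayed among the low transcripts, at the 4.80 percentile in shRNA-NC and the 10.3 percentile in shRNA-UBC9, with 66 to 172 recovered reads a sample. Without shRNA-NC replicate 3, or without any of the shRNA-UBC9 replicates, its limma adjusted p was between 0.0536 and 0.0998.

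IRF9, on chr14:24161265-24166565 (plus strand, 9 exons), is the DNA-binding subunit of ISGF3. It measured 6.16, 7.79 and 6.92 RPKM in shRNA-NC and 20.5, 22.3 and 17.5 RPKM in shRNA-UBC9. The knockdown samples lay close together and well above the controls, at a log2 fold change of 1.52 ± 0.123 (95% interval 1.24 to 1.80, limma adjusted p = 0.000109, rank 350 of the tested genes). In the annotation, 1513 of the 1626 exon bases of its main transcript also belong to a read-through locus on the same strand, and 308 to a long non-coding RNA on the opposite strand. Values of these loci were not analysed here, so their reads and those of IRF9 cannot be told apart. The neighbouring gene RNF31 had a log2 fold change of 0.72 (limma adjusted p = 0.00154) and was not called.

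STAT2 encodes another subunit of ISGF3, which pairs with IRF9 directly. It measured 7.05, 8.03 and 8.08 RPKM in shRNA-NC and 12.5, 20.6 and 10.5 RPKM in shRNA-UBC9. It was higher in every knockdown sample, at a log2 fold change of 0.85 (limma adjusted p = 0.0182), and was not called. Within a sample, the log2 ratio of IRF9 to STAT2 was -0.19, -0.04 and -0.22 in shRNA-NC and 0.71, 0.11 and 0.73 in shRNA-UBC9. IRF9 was the lower of the pair in every control and the higher in every knockdown sample, by least in replicate 2. The difference of 0.67 between the group means had p = 0.1 in a two-sided exact permutation test, the smallest that 3 samples against 3 allow, and 0.1 after adjustment over the 3 ratios tested here.

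**Figure D2:**
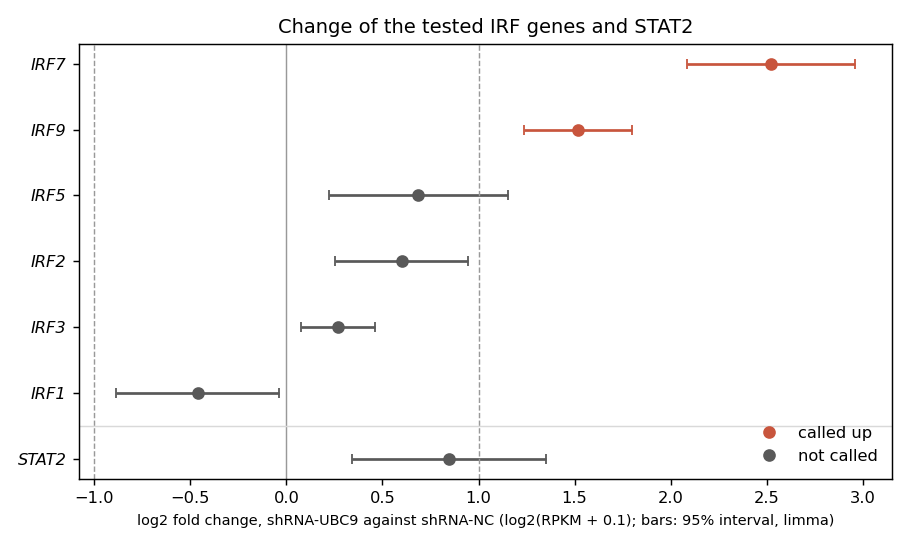
Log2 fold change, shRNA-UBC9 against shRNA-NC, of the 6 tested IRF genes and of STAT2, on the log2(RPKM + 0.1) scale, with bars for the limma 95% interval and dashed lines at a log2 fold change of 1 in either direction. IRF7 (2.52) and IRF9 (1.52) lie beyond 1 with their whole interval, and the interval of IRF1 reaches from -0.89 to -0.04.

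IRF1, on chr5:132481609-132490773 (minus strand, 10 exons), is an early target of interferon gamma and an activator of antigen presentation genes. Its values were 7.56, 6.62 and 7.52 RPKM in shRNA-NC and 4.49, 7.24 and 4.35 RPKM in shRNA-UBC9. Replicates 1 and 3 of the knockdown were below all controls, but replicate 2 lay among them. The log2 fold change was -0.46 ± 0.185 (95% interval -0.89 to -0.04, limma adjusted p = 0.0834), so IRF1 was not called. Without shRNA-UBC9 replicate 2 it was -0.69 (limma adjusted p = 0.00489), still short of a 2-fold change, and this sample decided on which side of 0.05 the p fell. The antisense gene IRF1-AS1, in the files as C5orf56, shares 580 exon bases with IRF1 and ranged from 0.541 to 0.668 RPKM in shRNA-NC and from 0.401 to 0.726 RPKM in shRNA-UBC9 (log2 fold change -0.14, limma adjusted p = 0.68). IRF1-AS1 was far below IRF1 in every sample. A protein-coding locus, also on the opposite strand, shares 227 exon bases with IRF1. Its values were not analysed here, so reads over the shared bases cannot be told apart.

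IRF2, on chr4:184387729-184474550 (minus strand, 9 exons), opposes IRF1 at many shared sites. It measured 6.39, 8.65 and 7.19 RPKM in shRNA-NC and 12.2, 12.5 and 9.20 RPKM in shRNA-UBC9. The groups did not overlap, and the log2 fold change of 0.60 ± 0.151 (limma adjusted p = 0.0163) was too small for a call. Leaving out shRNA-NC replicate 1, shRNA-NC replicate 3 or shRNA-UBC9 replicate 2 brought the adjusted p to between 0.0559 and 0.0587. The log2 ratio of IRF1 to IRF2 was 0.24, -0.38 and 0.06 in shRNA-NC and -1.42, -0.78 and -1.06 in shRNA-UBC9. IRF2 thus exceeded IRF1 in every knockdown sample, also in replicate 2, and the controls were mixed. The group means of this ratio differed by -1.06 and those of IRF7 to IRF3 by 2.25, each with p = 0.1 in the same exact permutation test and after the adjustment. The second ratio was 0.07, 0.34 and 0.26 in shRNA-NC and 2.09, 2.94 and 2.40 in shRNA-UBC9, so IRF7 and IRF3 were nearly level in the controls and far apart after knockdown.

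**Figure D3:**
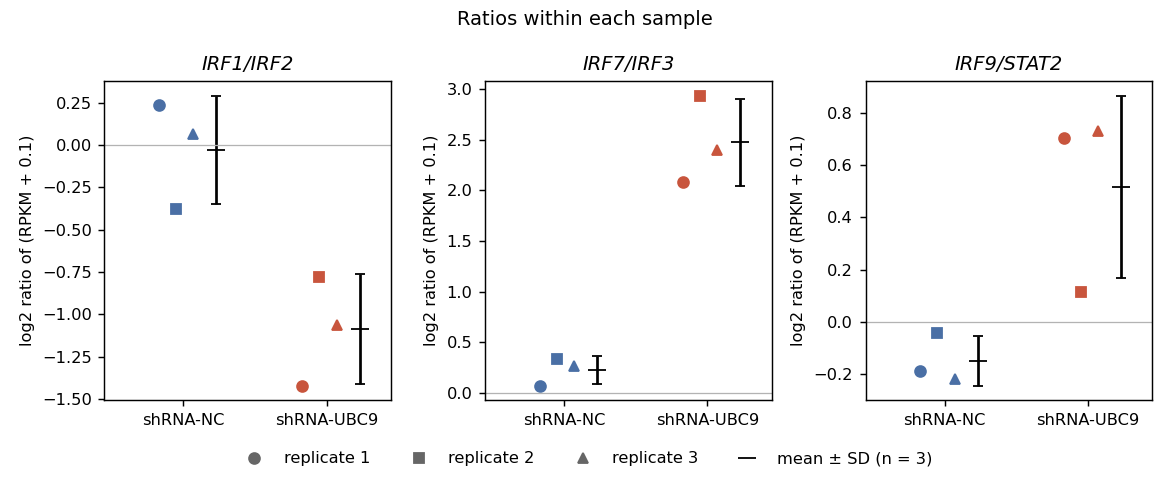
Log2 ratio of (RPKM + 0.1) between pairs of transcripts within each sample, for IRF1 to IRF2, IRF7 to IRF3 and IRF9 to STAT2, with shRNA-NC in blue, shRNA-UBC9 in red and the mean ± SD (n = 3) as black bars. The groups do not overlap in any of the 3 panels, and the gap is narrowest for IRF9 to STAT2, from -0.04 in shRNA-NC replicate 2 to 0.11 in shRNA-UBC9 replicate 2.

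IRF4, on chr6:391752-411443 (plus strand, 9 exons), and IRF8, on chr16:85899162-85922606 (plus strand, 9 exons), direct lymphoid and myeloid development and did not reach the 0.5 RPKM filter. IRF4 was listed at 0.0284, 0 and 0 RPKM in shRNA-NC and at 0.0047, 0.0192 and 0 RPKM in shRNA-UBC9, which came to 5, 0, 0, 1, 4 and 0 recovered reads. IRF8 was listed at 0, 0.0112 and 0 RPKM in shRNA-NC and at 0.0107, 0 and 0.00686 RPKM in shRNA-UBC9, or 0, 2, 0, 2, 0 and 1 reads. In the samples with no read, a count of 0 allows up to 3 reads, 0.0147 to 0.0180 RPKM for IRF4 and 0.0165 to 0.0195 RPKM for IRF8, counting error only, so no difference between groups was detectable. Of 12 leukocyte markers 10 stayed below 0.5 RPKM in every sample, and MS4A1 was at 0 in all 6. The markers summed to 0.746 to 1.57 RPKM in shRNA-NC and 0.792 to 2.02 RPKM in shRNA-UBC9, and without LYZ and CD14 no value of a marker exceeded 0.185 RPKM. The ranges overlap, and neither LYZ nor CD14 was called, though every knockdown sample was above the controls for CD14 (log2 fold change 0.47, limma adjusted p = 0.25). PTPRC, CD3E, AIF1 and LYZ were at 0 in shRNA-NC replicate 1 and shRNA-UBC9 replicate 3 and above 0 in the other samples. The other markers did not show this pattern, and its source was not tested.

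The order of the IRF transcripts changed with knockdown. In shRNA-NC, IRF7 and IRF3 led, IRF2, IRF1 and IRF9 followed with overlapping samples, IRF5 came next, and IRF4 and IRF8 were last without being apart from each other. In shRNA-UBC9 the order was IRF7, IRF9, IRF3, IRF2, IRF1 and IRF5, each apart from the next in all samples, with IRF4 and IRF8 again last. The RPKM of the 8 genes summed to 48.6 ± 3.38 in shRNA-NC and to 136.5 ± 28.7 in shRNA-UBC9 (SD, n = 3 each, p = 0.1, exact permutation test). IRF7 made up 29.2% ± 1.23 of this sum in shRNA-NC and 60.9% ± 5.82 in shRNA-UBC9. The share of IRF1 was 14.99% ± 2.05 and 3.88% ± 0.373, and that of IRF3 25.02% ± 1.58 and 11.02% ± 2.20. Each of these 3 shares had p = 0.1 in the exact permutation test with no overlap between groups, and the shares of a sum are bound to each other, so the gain of IRF7 lowers the rest. The share of IRF9 was 14.3% ± 0.880 and 14.97% ± 2.25, with overlapping samples (p = 0.9, exact permutation test).

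**Figure D4:**
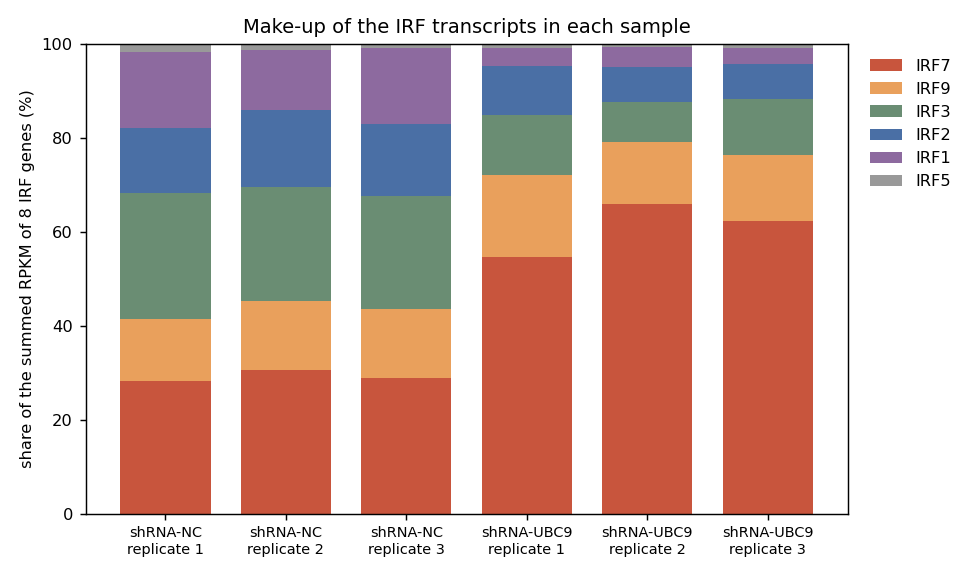
Share of each IRF transcript in the summed RPKM of the 8 IRF genes, in percent, for the 3 shRNA-NC and 3 shRNA-UBC9 samples; IRF4 and IRF8 together are too low to be seen and are not drawn. IRF7 takes 28.2% to 30.5% of the sum in the controls and 54.6% to 66.0% after knockdown, and IRF1 shrinks from at least 12.6% to at most 4.27%.

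Transcripts of the interferons that IRF3 and IRF7 switch on appeared in shRNA-UBC9 cells at low levels. IFNB1, the type I interferon of epithelial cells and fibroblasts, was listed at 0 RPKM in the 3 shRNA-NC samples and at 0.484, 0.793 and 0.206 RPKM in shRNA-UBC9, with 15, 24 and 5 recovered reads. It did not reach the filter, so it was not tested. IFNL1, a type III interferon, stood at 0.0391, 0.0674 and 0.0690 RPKM in shRNA-NC and at 0.680, 2.38 and 0.620 RPKM in shRNA-UBC9 (log2 fold change 2.82, limma adjusted p = 0.0027). IFNL1 was called up but passed the filter only through the knockdown samples, as did 174 of all tested genes, of which 133 were called up. Of 14 interferons and receptors listed, 7 were tested, 2 were called up (IFNL1 and the receptor chain IFNLR1, log2 fold change 1.17) and 0 down, with a median log2 fold change of 0.71, where 5.2% of all tested genes were called up. The type I receptor chains IFNAR1 (0.10, adjusted p = 0.5) and IFNAR2 (0.71, limma adjusted p = 0.0064) were not called.

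Among 17 adaptors and kinases that activate IRF3, IRF5 or IRF7, 16 were tested, 2 were called up and 0 down, with a median log2 fold change of 0.53. The kinase gene IKBKE, which encodes IKKε, went from 4.35 ± 0.399 to 11.4 ± 0.408 RPKM (log2 fold change 1.37, limma adjusted p = 5.34e-05). TMEM173, now STING1, the adaptor of cytosolic DNA sensing, went from 9.70 ± 1.11 to 19.7 ± 1.48 RPKM (1.02, limma adjusted p = 0.000413). TBK1, the partner kinase of IKKε, had a log2 fold change of 0.44 (adjusted p = 0.0373), MYD88, the Toll-like receptor adaptor, -0.17 (adjusted p = 0.472), and MAVS, the adaptor of RNA sensing, -0.41 (adjusted p = 0.0065, limma), none past 1. The share called up, 12.5%, stands beside 5.2% of all tested genes, and without shRNA-UBC9 replicate 2 only 1 of the list was called.

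DNA-binding partners and co-activators of the IRFs numbered 14, of which 10 were tested, with 3 called up (30%, against 5.2% of all tested genes) and 0 down (median log2 fold change 0.72). Among those called were BATF2 and JUNB, transcription factors of the AP-1 family. BATF2 measured 0.815, 0.530 and 0.467 RPKM in shRNA-NC and 3.21, 12.9 and 4.39 RPKM in shRNA-UBC9 (log2 fold change 3.07, limma adjusted p = 0.0016). JUNB went from 12.9 ± 1.89 to 41.1 ± 6.06 RPKM (1.66, limma adjusted p = 0.000135). BATF2 was apart between groups but spread widely in shRNA-UBC9, where replicate 2 was highest. The 10 proteins that restrain IRF activity or the response it drives had a median log2 fold change of -0.02, with 2 called up (20%, against the same 5.2%), USP18 (2.67, adjusted p = 0.00141) and TRIM21 (1.21, adjusted p = 0.00316, limma), and 0 down (2.7% of all). USP18 encodes a brake on the type I interferon receptor and TRIM21 a ubiquitin ligase that acts on several IRFs. The IRF2 co-repressors IRF2BP1 (0.01, adjusted p = 0.956) and IRF2BP2 (-0.08, adjusted p = 0.544, limma) were not called, and without shRNA-UBC9 replicate 2 only 1 gene of this list was.

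Genes known to respond to ISGF3 rose almost as a block. Of 30 listed and tested, 27 were called up and 0 down, with a median log2 fold change of 2.37, where 5.2% of all tested genes were called up and 2.7% down. This list, like the others here, was written with earlier results of these data known, so its share is not an independent result. The largest change was that of IFI44L, from 1.23 ± 0.608 to 39.7 ± 13.8 RPKM (log2 fold change 4.96), followed by the antiviral genes RSAD2 (4.77) and MX1 (4.53), CMPK2 (4.18), IFI6 (4.16) and OAS1 (3.60). The 3 not called, named after their values were seen, were HERC5 (0.46), IFIT2 (0.07) and OASL (-0.11). IFIT2 measured 12.1, 13.9 and 18.7 RPKM in shRNA-NC and 12.3, 31.0 and 9.61 RPKM in shRNA-UBC9, so the groups overlapped. Replicate 2 was the highest shRNA-UBC9 sample for all 30 genes and the highest shRNA-NC sample for 21 of them. It was also the highest shRNA-UBC9 sample for IRF1, IRF2, IRF5, IRF7, IRF9 and STAT2. The share of all tested genes that were highest in shRNA-UBC9 replicate 2 was not computed, so the pattern cannot be called particular to these genes. With this sample or any other left out, 26 or 27 of the 30 were called.

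Genes linked to IRF1, mainly those of antigen processing and the guanylate-binding proteins, also held called genes. Of 27 listed, 25 were tested, 11 were called up (44%, against 5.2% of all tested genes) and 0 down, and the median log2 fold change was 0.92. GBP5 (4.15), which passed the filter only through shRNA-UBC9, GBP1 (1.996), the inflammasome protease gene CASP1 (1.88), the virus-tethering gene BST2 (1.81), GBP2 (1.75) and the peptide transporter gene TAP1 (1.60) had the largest log2 fold changes among those called. These genes were higher in shRNA-UBC9, while the IRF1 transcript was lower on average and not called. Many respond to ISGF3 as well, and which factor drove them was not tested. Between 8 and 13 genes of this list were called when a sample was left out. The filter was reapplied each time, so GBP5 was not tested without a shRNA-UBC9 sample.

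**Figure D5:**
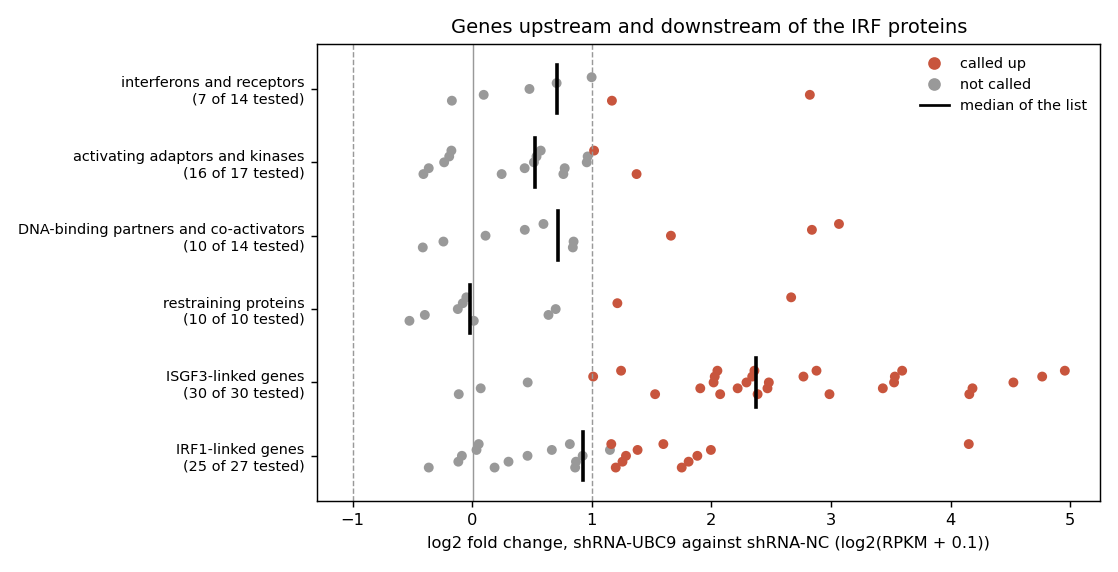
Log2 fold change, shRNA-UBC9 against shRNA-NC, of each tested gene in 6 lists around the IRF proteins, with genes called up in red, other genes in grey, the median of each list as a black bar and dashed lines at a log2 fold change of 1 in either direction. The ISGF3-linked genes have the highest median (2.37) and the restraining proteins the lowest (-0.02), and no gene of the 6 lists was called down.

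The genes whose log2(RPKM + 0.1) followed IRF7 most closely over the 6 samples were GPAT4 (Pearson r = 0.999), HELZ2 (0.999) and PLSCR1 (0.998), and those closest to IRF9 were IFI44L, ULBP2 and SECISBP2 (each 0.999). These 6 samples fall into 2 groups, so any gene that differs steadily between the groups scores high, and 727 genes exceeded 0.95 with IRF7 and 881 with IRF9. HELZ2 (log2 fold change 2.27) and PLSCR1 (2.34) changed about as much as IRF7, GPAT4 (0.57) far less. IFI44L (4.96) changed more than IRF9, ULBP2 (1.07) and SECISBP2 (0.35) less.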

How the data were processed

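RNA-seq of T24 cells comprised 3 shRNA-NC and 3 shRNA-UBC9 samples, grouped by the sample labels. Reads were trimmed by the authors and aligned to GRCh38 (hg38) in the CLC Biomedical Genomics Workbench, and RPKM per gene was deposited for 58174 genes. The annotation release, strand setting and treatment of multi-mapping reads are not given in the sources used here. RPKM is not corrected for RNA composition, and the absolute depth is unknown. Relative depth and whole reads were recovered from the steps of low values (tolerance 0.02 reads). The reads are the smallest whole numbers the values allow and were used for description only.

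Genes with at least 0.5 RPKM in at least 3 of the 6 samples (12428) were compared on log2(RPKM + 0.1) with limma 3.58.1 in R 4.3.3 (lmFit, eBayes with trend) and Benjamini-Hochberg adjustment over all of them. A fold change on this scale understates that of low genes. Calls needed a log2 fold change beyond 1 and an adjusted p below 0.05. Ratios, shares and sums were compared by two-sided exact permutation tests in scipy 1.17.1. The scripts were tested on simulated data.

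The members and gene lists were written from general knowledge, with earlier results of these data known. The text names the 8 members, genes that overlap a member, up to 6 called genes a list by size of change, further genes named whatever their values (STAT2, TBK1, IKBKE, MYD88, IRF2BP1, IRF2BP2, IFNB1), the 3 genes most like each called member, cell type markers, and a few chosen after their values were seen (RNF31, MAVS, IFNAR1, IFNAR2, HERC5, IFIT2, OASL). Positions are those of the main transcript in GENCODE release 44 (GRCh38) and promoters from RefSeq (GRCh38.p14). The transcript targeted by the hairpin and a few other genes of the lists are not reported here. No 2 samples held identical values. Alternatives were other pseudocounts, filters, scalings, no trend, a replicate block, adjusted p alone, and leaving out each sample.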

Additional observations from a re-analysis of the deposited data

How the results depend on the processing

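No log2 fold change of a tested IRF gene turned direction under the alternatives. The untested differences of IRF4 (-0.00712 to 0.00798 RPKM) and IRF8 (-0.000296 to 0.00587 RPKM) did when a sample was left out. Of all values recomputed with a sample left out, 12 lost an adjusted p below 0.05 and 1 gained it. Counts that moved by more than 1.5 times numbered 6, and the other 221 results were taken as unchanged. Under the other settings the numbers were 6, 0, 22 and 231. Unchanged log2 fold changes kept their direction and their side of 0.05, and unchanged counts moved by at most 1.5 times. Ratios and the RPKM differences of the tested IRF genes only had to keep their direction, because their exact p could not fall below 0.05. That criterion says nothing about how far they moved. For IRF4 and IRF8 the difference had to move less than the spread between replicates. IRF7 and IRF9 were called under every alternative. The log2 fold change of IRF3 lost its limma adjusted p below 0.05 with median scaling (0.23, adjusted p = 0.0653), without the trend (0.27, adjusted p = 0.0509) and with a replicate block (0.27, adjusted p = 0.0888), and that of IRF5 with every gene above 0 tested (0.69, adjusted p = 0.0724), quantile normalization (0.57, adjusted p = 0.0589) and the block (0.69, adjusted p = 0.0565). The cause was not tested. Replicate numbers did not pair the samples (correlations of deviations -0.37, 0.07 and -0.17 for numbers 1 to 3). Across unlike numbers the highest correlation was 0.53, between shRNA-NC replicate 1 and shRNA-UBC9 replicate 3. These 2 samples also had the fewest genes above 0 (18059 and 18254) and the lowest relative depth (1.0 and 0.945). PTPRC, CD3E, AIF1 and LYZ were at 0 in both, as given above. The source of what these 2 samples share was not tested. With the replicate block 642 genes were called up and 332 down, and no call changed among the IRF genes. By adjusted p alone, which drops the limit on the fold change, 2339 genes were higher and 2237 lower. The same rule gave 5 IRF genes higher, 10 activating adaptors and kinases higher and 1 lower, 7 partners higher and 2 lower, 4 restraining proteins higher and 2 lower, 5 interferons and receptors higher, and 5 epithelial markers lower. Over all genes, 391 were called up and 161 down with a pseudocount of 1, and 342 and 210 with at least 1 RPKM in all 6 samples, against 646 and 335. Called activating adaptors and kinases numbered 1 with a pseudocount of 1, quantile normalization or median scaling. Called interferons and receptors numbered 0 with a pseudocount of 1 or at least 1 RPKM in all samples, where fewer low genes can pass. Leaving out each sample gave log2 fold changes of -0.69 to -0.33 for IRF1, 0.50 to 0.74 for IRF2, 0.22 to 0.30 for IRF3, 0.50 to 0.80 for IRF5, 2.30 to 2.70 for IRF7 and 1.43 to 1.61 for IRF9. It gave 1 to 3 called activating adaptors and kinases, 1 to 2 restraining proteins, 1 to 3 interferons and receptors (1 without shRNA-UBC9 replicate 1), and 477 to 666 genes up and 272 to 362 down overall. The filter was reapplied each time, so IFNL1 and GBP5 were not tested when a shRNA-UBC9 sample was left out. With 3 samples a group, no exact permutation test could fall below 0.1, and IRF4 and IRF8 were too low to compare.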
